A study of Mus musculus with 30 samples.

Results

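A set of 10 genes was followed here in the RNA of bone marrow and of fat macrophages. They are the AP-1 subunit genes *Fos*, *Fosb*, *Fosl1*, *Fosl2*, *Jun*, *Junb* and *Jund*, the related immediate early factors *Egr1* and *Atf3*, and the phosphatase gene *Dusp1*. They were chosen by symbol, and all 10 were present in both count tables, among 13353 genes in bone marrow (BM) and 17059 in adipose tissue macrophages (ATMs). The study transplanted marrow carrying a leukemia-associated *Shp2* (*Ptpn11*) mutation into lean or obese mice and asked how obesity, a GLP-1R agonist and blockade of IL-17A alter the recipients' marrow and fat macrophages. Every recipient was lethally irradiated and given an equal mixture of mutant marrow (donor genotype Shp2 E76K/+;LysM-Cre+) and Boy/J competitor marrow, so the mutation sat in part of the blood cells only and LysM-Cre, which is active in myeloid cells, switched it on. WT recipients were C57BL/6 mice for which the labels give no treatment. The other 4 groups were leptin-deficient Ob/Ob recipients, treated for 30 days from 8 weeks after transplantation with vehicle (Vehicle), with the GLP-1R agonist beinaglutide at 3 mg/kg under the skin, with an anti-IL-17A antibody at 200 µg per mouse into the peritoneum 3 times a week, or with both agents (Combo). Mice were about 12 to 14 weeks old and of both sexes by the labels, which give 3 mice per group and the same genotype entry, C57BL/6J, for every library. The study elsewhere gives a lower age range for recipients at transplantation. Treatment began 8 weeks after that, so the labels' age need not be the age at collection. The donor is described for all recipients together and not for single libraries, and for its ATM comparison the study elsewhere names Ob/Ob recipients of mutant or of WT donor cells. In ATMs, then, Vehicle vs WT may be a difference of recipient, of donor or of both, which cannot be told apart here. Whether a BM and an ATM library of the same number came from the same mouse is not stated.

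AP-1 is a dimer of a Jun protein with a Fos protein or with another leucine zipper partner such as Atf3. Most of its genes, like *Egr1*, are immediate early genes: existing transcription factors, among them serum response factor and CREB, switch them on within minutes of a growth factor, cytokine or stress signal, without new protein synthesis, and their RNA is short-lived. Shp2 passes signals from receptors to the Ras-ERK pathway, which feeds these promoters, and Dusp1 is a phosphatase that removes the activating phosphates from MAP kinases. In macrophages and granulocytes AP-1 drives genes of inflammation, growth and differentiation, and the same genes are also induced when tissue is digested into single cells.

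Stretches of promoter sequence are shown for the 6 members whose upstream 200 bases hold a cyclic AMP response element (CRE) core, the site of CREB and Atf proteins, or the related site of the *Jun* promoter. The capitals mark TGACG or its reverse complement CGTCA, the full CRE TGACGTCA in *Dusp1* and TGACATCA in *Jun*. Each runs 5′ to 3′ on the gene's own strand and ends at the base before the transcription start of RefSeq on GRCm38.p6.
Fos, chr12:85473690-85473889, plus strand: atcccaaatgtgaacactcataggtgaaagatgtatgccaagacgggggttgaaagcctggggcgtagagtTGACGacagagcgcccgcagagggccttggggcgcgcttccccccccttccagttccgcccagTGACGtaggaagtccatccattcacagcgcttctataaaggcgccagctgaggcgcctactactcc
Fosb, chr7:19310046-19310245, minus strand: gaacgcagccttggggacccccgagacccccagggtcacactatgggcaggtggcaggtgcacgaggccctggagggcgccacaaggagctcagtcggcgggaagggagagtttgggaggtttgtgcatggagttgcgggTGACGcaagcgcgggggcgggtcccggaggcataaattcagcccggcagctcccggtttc
Jun, chr4:95052223-95052422, minus strand: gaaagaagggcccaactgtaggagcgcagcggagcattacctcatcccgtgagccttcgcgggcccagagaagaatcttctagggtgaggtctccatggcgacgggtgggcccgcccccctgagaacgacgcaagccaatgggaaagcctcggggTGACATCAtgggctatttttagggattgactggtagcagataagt
Junb, chr8:84978749-84978948, minus strand: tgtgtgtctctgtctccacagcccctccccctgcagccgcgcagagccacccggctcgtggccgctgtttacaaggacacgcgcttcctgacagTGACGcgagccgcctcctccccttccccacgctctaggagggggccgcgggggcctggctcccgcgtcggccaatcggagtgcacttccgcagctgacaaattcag
Atf3, chr1:191183334-191183533, minus strand: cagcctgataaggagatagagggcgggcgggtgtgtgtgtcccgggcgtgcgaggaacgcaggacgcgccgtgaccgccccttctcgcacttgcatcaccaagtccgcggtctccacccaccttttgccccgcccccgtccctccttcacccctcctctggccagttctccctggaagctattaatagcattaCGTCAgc
Dusp1, chr17:26508473-26508672, minus strand: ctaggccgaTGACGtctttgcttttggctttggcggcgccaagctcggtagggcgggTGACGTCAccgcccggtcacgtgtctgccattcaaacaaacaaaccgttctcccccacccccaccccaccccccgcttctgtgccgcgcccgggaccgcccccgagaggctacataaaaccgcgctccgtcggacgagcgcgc
RefSeq windows were found for 8 of the 10 members, *Fosl1* and *Egr1* being the others. A CRE core on either strand lay in 5 of these 8 windows, against 15.7% of 32851 windows of mouse genes. The full CRE, which contains the core, lay at -143 to -136 of *Dusp1* and in 1.47% of all windows. TGACATCA lay at -45 to -38 of *Jun* and in 2.66% of all windows. The *Fos* window had cores at -129 to -125 and at -66 to -62. TGACTCA, the classical AP-1 site, with its reverse complement TGAGTCA, lay in 0 of the 8 windows and in 3.66% of all. The CArG box bound by serum response factor lay in 0 of the 8 and in 1.18%. These matches describe letters in short windows and say nothing of binding or of sites further upstream. They say nothing of *Egr1* either, which was left out. The window of *Jund* (chr8:70697539-70697738) lay upstream of the gene start given below and did not adjoin it. Those of *Dusp1*, *Atf3* and *Fosl2* lay inside the gene spans given below, so they belong to starts within these spans.

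By the annotation of GRCm38 the members lie on 9 chromosomes: *Fos* at chr12:85473890-85477273, *Fosb* at chr7:19302696-19310051, *Fosl1* at chr19:5447547-5455946, *Fosl2* at chr5:32135801-32157842, *Jun* at chr4:95049034-95052222, *Junb* at chr8:84974484-84978718, *Jund* at chr8:70698949-70700616, *Egr1* at chr18:34859823-34864984, *Atf3* at chr1:191170296-191218039 and *Dusp1* at chr17:26505590-26562128. Reads were counted over exons without regard to strand, and a read on more than 1 gene was counted for each. This matters for *Fosl1*, which shares 57.2% of its exon length with *Ccdc85b* on the opposite strand, and for *Jund*, which shares 52.6% with the predicted gene *Gm11175*. Reads of *Jund* and *Gm11175* cannot be told apart, so the counts of *Jund* are uncertain. Smaller shares lie on the opposite strand for *Junb*, 7.52% with *Prdx2*, and for *Jun*, 7.28% with *Junos*. *Prdx2* had 10468 to 28814 counts per BM library and 5132 to 14515 per ATM library. How many reads *Junb* and *Prdx2* share is not known here. *Ccdc85b* itself had 203 to 331 counts per BM library and 668 to 1214 per ATM library. *Fosl1* had only 0 to 14 counts in the WT and GLP-1R agonist libraries of BM, so at most 14 reads were shared there, and 205 to 258 in ATM Combo.

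Libraries held 31086184 to 39925495 counts on genes in BM and 24876074 to 45300263 in ATMs. The 10 members took 0.113% to 0.243% of these counts in BM and 1.39% to 2.21% in ATMs. Levels below are normalized counts, that is, counts scaled to a common TMM-adjusted depth within each tissue (the average of its 15 libraries), so they compare groups within a tissue and not the tissues with each other. Replicates were close. Leaving *Fosl1* aside, the coefficient of variation (CV, SD over mean) within a group had a median of 2.09% in BM and 2.03% in ATMs for the members, against 2.62% and 7.09% over all genes with a mean of at least 1000 normalized counts. No replicates were identical within counting noise, and BM WT replicate 1 stood apart from both other WT libraries across the transcriptome, with a chi-square per gene of 34.8 and 26.6 where other BM replicate pairs had 2.02 to 4.21. The common biological CV that edgeR estimated over all genes was 3.51% in BM and 32.5% in ATMs. The spread was small in BM, and for most members in ATMs too. Whether the p-values of either tissue cover the spread between mice cannot be told from these libraries. A difference was called at an adjusted p below 0.05 (edgeR, quasi-likelihood test, Benjamini-Hochberg over all genes) with an absolute log2 fold change above 1. In bulk RNA, fewer cells of a type and less RNA per cell cannot be told apart.

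The ATM libraries held transcripts of other cells too, in amounts that differed between groups. Summed over 8 genes, macrophage markers had 3521 to 3749 CPM (counts scaled to library size) in WT, 1815 to 1953 in Vehicle, 8821 to 9137 with the GLP-1R agonist, 12885 to 13138 with anti-IL-17A and 9512 to 9557 in Combo. The macrophage list was not of a piece: in Vehicle vs WT *Lyz2*, *Csf1r*, *Adgre1*, *Mrc1* and *C1qa* were called lower (-1.21 to -4.28), *Cd68* (1.01) and the Fc receptor gene *Fcgr1* (3.72) higher, and *Mertk* was not called (0.57). Neutrophil markers (6 of 7 in the table, *Ly6g* absent) summed to 18741 to 19838 in Vehicle and 9702 to 10024 in Combo, but to 131 to 312 in the other 3 groups. Fibroblast and stromal markers reached 23689.8 to 24123 with the GLP-1R agonist and were lowest in Vehicle, at 5806 to 6216. Epididymal transcripts (4 of 6 in the table) were at 2978 to 3127 in WT and at most 175 elsewhere, and pancreatic acinar transcripts (7 of 7) at 1013 to 1057 in Combo and at most 5.39 elsewhere. Immediate early genes are not specific to macrophages, and the part of these other cells in the results was not tested. In BM, monocyte markers (4 genes) summed to 6162 to 6343 in Vehicle and 1721 to 2623 elsewhere, and in Vehicle vs WT *Ly6c2* (2.00) and *Plac8* (1.41) were called higher, *Ccr2* lower (-1.32), and *Fn1* was not called (-0.10). Macrophage markers, *Lyz2* among them, summed to 13139 to 13414 in WT and 3468 to 6597 elsewhere. This list was not of a piece in BM either. In Vehicle vs WT *Lyz2* (-1.90) and *Mrc1* (-2.91) were called lower and *Fcgr1* (3.46) and *Mertk* (1.35) higher. The other genes of the list were not called. Neutrophil markers were at 111187 to 113236 in Vehicle, 110955 to 112755 in Combo and 68588 to 69268 with the GLP-1R agonist, and immature granulocyte markers (4 genes) at 3971 to 4093 in Vehicle and 9995 to 10150.5 in Combo. B cell markers (5 genes) were at 1103 to 1123 in WT, 316 to 332 in Vehicle, 103 to 104 with the GLP-1R agonist and 103 to 105 in Combo, and erythroid markers (3 of 5 in the table) at 291 to 306 in Vehicle and 832 to 833 with the GLP-1R agonist. Their part was not tested either.

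**Figure D1:**
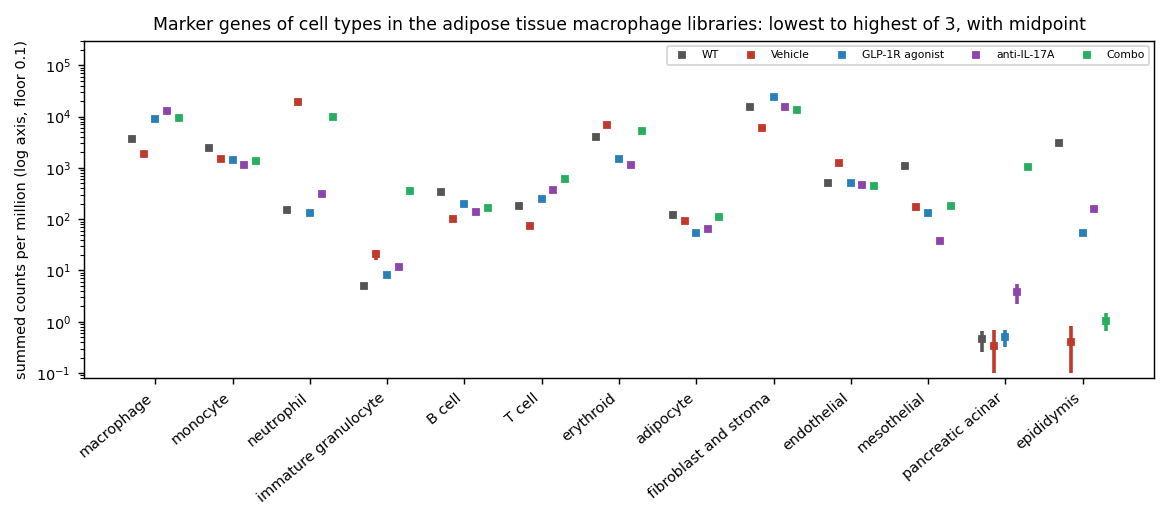
Summed CPM (log axis) of marker genes of 13 cell types or tissues in the ATM libraries, as the range and midpoint of 3 libraries per group. Neutrophil markers were high in Vehicle and Combo, epididymal transcripts in WT and pancreatic acinar transcripts in Combo.

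In WT, *Junb* was the most abundant member per kilobase of exon in BM and *Fos* in ATMs. In WT marrow *Junb* had 194 ± 6.23 CPM per kilobase (SD, n = 3), *Jund* 150.3 ± 1.53, *Fos* 152 ± 3.17 and *Jun* 52.4 ± 0.848, whereas *Atf3* had 3.55 ± 0.195 and *Fosl1* 0.0865 ± 0.0842. In WT ATMs *Fos* had 1615 ± 25.6, *Egr1* 1244 ± 18.7, *Junb* 1042 ± 16.7, *Dusp1* 945 ± 16.4, *Atf3* 735 ± 8.23, *Jun* 603 ± 6.05 and *Fosl1* 5.56 ± 1.02. In Vehicle the highest levels per kilobase were those of *Jund* in BM, at 154 ± 3.74, and of *Dusp1* in ATMs, at 1678 ± 20.3. The ratio of *Fos* to *Jun* per kilobase moved with the groups. In BM it was 2.90 ± 0.0504 in WT, 0.998 ± 0.00996 in Vehicle, 2.73 ± 0.0410 with the GLP-1R agonist, 3.46 ± 0.0320 with anti-IL-17A and 2.15 ± 0.0462 in Combo (SD, n = 3), and no groups overlapped. In ATMs it was also lowest in Vehicle, at 1.85 ± 0.0629, against 2.68 ± 0.0683 in WT, 2.30 ± 0.0495 with the GLP-1R agonist and 2.80 ± 0.0947 with anti-IL-17A, and the Combo mean lay between those of WT and anti-IL-17A, with overlapping libraries. These ratios are a description and were not tested.

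In marrow of obese recipients given vehicle, *Fosb* and *Egr1* were lower than in WT recipients and *Fosl1* and *Atf3* were higher. The members called in Vehicle vs WT were these 4 of 10, where 19.5% of all genes were called. With anti-IL-17A, *Fos*, *Fosb* and *Egr1* rose and *Fosl1* and *Atf3* fell against Vehicle (5 of 10, background 16.1%). In Combo, *Fosb* and *Egr1* rose and *Fosl1* and *Atf3* fell (4 of 10, background 17.7%). With the GLP-1R agonist alone, *Fosb* rose and *Fosl1*, *Jun* and *Atf3* fell (4 of 10, background 16.7%). All 3 treatment comparisons share the Vehicle libraries with each other and with Vehicle vs WT, so a member that stands high or low in Vehicle moves all 4. Without a fold limit 9 or 10 of the 10 members passed the test in each, to be read against 76.6%, 72.8%, 73% and 73.8% of all genes in Vehicle vs WT and, against Vehicle, with the GLP-1R agonist, with anti-IL-17A and in Combo.

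**Figure D2:**
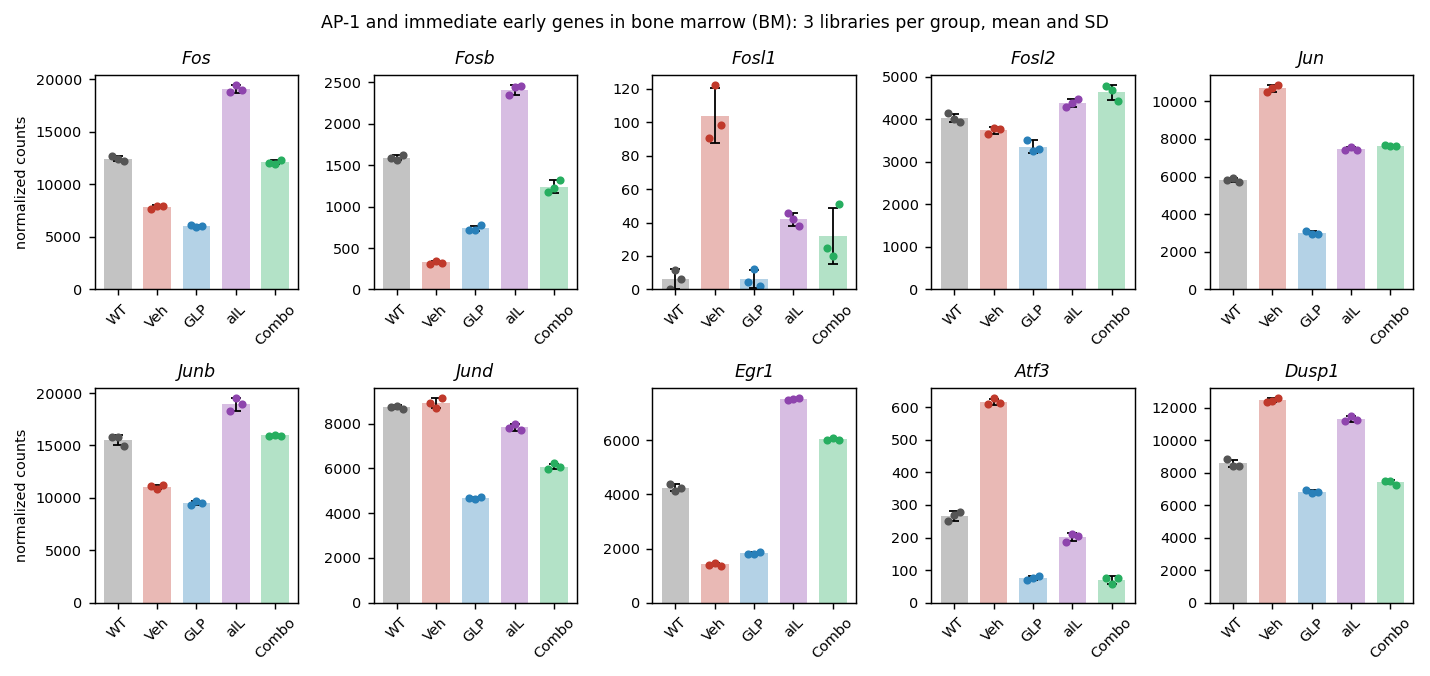
Normalized counts of the 10 members in BM, with 1 point per library, bars for the mean of 3 and error bars for the SD (Veh, Vehicle; GLP, GLP-1R agonist; aIL, anti-IL-17A). *Fos*, *Fosb*, *Junb* and *Egr1* were highest with anti-IL-17A, and *Fosl1*, *Jun*, *Atf3* and *Dusp1* were highest in Vehicle.

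*Fos*, the prototype Fos subunit, had normalized counts in BM of 12729.6, 12432 and 12213 in WT, 7699, 7955 and 7958 in Vehicle, 6182, 5919.6 and 6052 with the GLP-1R agonist, 18764, 19489 and 18950.1 with anti-IL-17A and 12028, 11958 and 12335 in Combo. Anti-IL-17A libraries were highest and GLP-1R agonist libraries lowest, and only WT and Combo overlapped. *Fos* was 2.42-fold higher with anti-IL-17A than in Vehicle (log2 fold change 1.28, SE 0.025, adjusted p = 4.99e-35). Vehicle was 1.58-fold lower than WT (log2 fold change -0.66, SE 0.025, adjusted p = 6.79e-25), below the fold limit, as were the GLP-1R agonist (-0.38) and Combo (0.62) against Vehicle. *Fosb* encodes a second inducible Fos subunit. Its normalized counts in BM were 1589, 1560.2 and 1625 in WT, 313, 347 and 322 in Vehicle, 719, 718 and 773 with the GLP-1R agonist, 2346, 2442 and 2453 with anti-IL-17A and 1176, 1225 and 1323 in Combo. The 5 groups were fully separate, with Vehicle lowest. *Fosb* was 4.86-fold lower in Vehicle than in WT (log2 fold change -2.28, SE 0.06, adjusted p = 1.32e-30). Against Vehicle it was 7.37-fold higher with anti-IL-17A (log2 fold change 2.88, SE 0.058, adjusted p = 9.76e-35), 3.79-fold higher in Combo (log2 fold change 1.92) and 2.25-fold higher with the GLP-1R agonist (log2 fold change 1.17).

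*Fosl1* encodes Fra-1, a Fos protein without the strong activation domain of Fos, and was near the limit of detection in BM. Its raw counts were 0, 12 and 6 in WT, 80, 114 and 82 in Vehicle, 5, 14 and 2 with the GLP-1R agonist, 45, 47 and 42 with anti-IL-17A and 24, 19 and 49 in Combo. Vehicle libraries lay above all others. *Fosl1* rose in Vehicle vs WT (log2 fold change 4.12, SE 0.47, adjusted p = 3.80e-08) and fell with the GLP-1R agonist (log2 fold change -3.96, SE 0.46, adjusted p = 5.16e-08), with anti-IL-17A (log2 fold change -1.31, SE 0.34, adjusted p = 0.00143) and in Combo (log2 fold change -1.70, SE 0.36, adjusted p = 1.78e-04). With so few counts the size of the change depended on single libraries: Vehicle vs WT was 3.47 without WT replicate 1 and 5.12 without WT replicate 2, and the GLP-1R agonist against Vehicle was -4.88 without its replicate 2. *Fosl2*, which encodes Fra-2, moved little, from 3356 ± 143 normalized counts (SD, n = 3) with the GLP-1R agonist to 4629 ± 177 in Combo, and stayed within the fold limit in these 4 comparisons although its adjusted p was below 0.05 in each (edgeR).

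*Jun*, the subunit with the strongest activation domain, ran against *Fos* in Vehicle marrow. Its normalized counts in BM were 5842, 5906 and 5720.3 in WT, 10514, 10684 and 10878 in Vehicle, 3094, 2958 and 2949 with the GLP-1R agonist, 7423, 7569 and 7431 with anti-IL-17A and 7693, 7643 and 7599 in Combo. Vehicle was highest, the GLP-1R agonist lowest, and anti-IL-17A and Combo were close, without overlap, and did not pass the test (edgeR adjusted p = 0.301). *Jun* fell 3.56-fold with the GLP-1R agonist (log2 fold change -1.83, SE 0.027, adjusted p = 1.35e-39). It was 1.84-fold higher in Vehicle than in WT (log2 fold change 0.88, SE 0.026, adjusted p = 1.00e-28), just under the fold limit. *Junb*, an inducible subunit that can restrain Jun and is known as a brake on myeloid growth, followed *Fos*: 15511 ± 499 in WT, 11083 ± 190.4 in Vehicle, 9505 ± 178 with the GLP-1R agonist, 18907 ± 612 with anti-IL-17A and 15953 ± 53.6 in Combo (SD, n = 3). Its largest difference among the 4 comparisons was 0.77 with anti-IL-17A, below the fold limit. *Jund*, the constitutively expressed Jun subunit, overlapped between Vehicle and WT (log2 fold change 0.03, 95% interval -0.02 to 0.08, edgeR adjusted p = 0.28) and was lowest with the GLP-1R agonist, at 4687 ± 52.5 against 8920.5 ± 217 in Vehicle (-0.93).

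*Egr1*, a zinc finger immediate early factor downstream of ERK that favors the monocyte lineage, had normalized counts in BM of 4389, 4136 and 4221 in WT, 1400.5, 1470.1 and 1365 in Vehicle, 1786, 1789.7 and 1889.6 with the GLP-1R agonist, 7500.2, 7530 and 7558 with anti-IL-17A and 6012, 6078 and 6027 in Combo. The 5 groups did not overlap, and Vehicle was lowest. *Egr1* was 3.01-fold lower in Vehicle than in WT (log2 fold change -1.59, SE 0.035, adjusted p = 1.59e-33). It rose 5.33-fold with anti-IL-17A (log2 fold change 2.41, SE 0.034, adjusted p = 2.45e-40) and 4.27-fold in Combo (log2 fold change 2.10, SE 0.034, adjusted p = 5.20e-38), to levels above WT in both. The GLP-1R agonist gave 0.37, below the fold limit.

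*Atf3*, a stress-induced leucine zipper factor that often acts as a repressor, was highest where *Egr1* was lowest, in Vehicle. Its normalized counts in BM were 250.2, 269.8 and 279 in WT, 611, 628 and 612 in Vehicle, 70.3, 77.1 and 80.7 with the GLP-1R agonist, 188, 210.4 and 205 with anti-IL-17A and 77.2, 57.2 and 76.2 in Combo. Vehicle was highest in all 3 libraries, and only the GLP-1R agonist and Combo overlapped. *Atf3* was 2.32-fold higher in Vehicle than in WT (log2 fold change 1.22, SE 0.093, adjusted p = 4.89e-15), fell 8.11-fold with the GLP-1R agonist (log2 fold change -3.02, SE 0.11, adjusted p = 1.57e-25), 3.06-fold with anti-IL-17A (log2 fold change -1.62) and 8.77-fold in Combo (log2 fold change -3.13). *Dusp1*, the MAP kinase phosphatase, was also highest in Vehicle, but within the fold limit. It had 8579.7 ± 241 in WT, 12468 ± 128 in Vehicle, 6850 ± 76.8 with the GLP-1R agonist, 11336 ± 178 with anti-IL-17A and 7422 ± 133 in Combo (SD, n = 3).

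Set against WT, Combo marrow differed by the call rule in *Fosl1*, which was higher (2.43), and *Atf3*, which was 3.78-fold lower (log2 fold change -1.92, SE 0.12, adjusted p = 2.49e-17), that is 2 of 10 where 14.3% of all genes were called. The value for *Fosl1* was 1.77 without WT replicate 1 and 3.42 without WT replicate 2. Combo exceeded the GLP-1R agonist alone in *Fos* (1.00), *Fosl1* (2.26), *Jun* (1.35) and *Egr1* (1.73), 4 of 10 with a background of 13.2%. *Fosl1* moved to 3.18 without GLP-1R agonist replicate 2, and *Fos* sat on the fold limit and dropped under it without WT replicate 2 (0.997), Vehicle replicate 3 (0.97), GLP-1R agonist replicate 2 (0.98) or Combo replicate 3 (0.99). Combo and anti-IL-17A alone differed by the call rule only in *Atf3* (-1.52), 1 of 10 with a background of 5.67%. Leaving out Combo replicate 3 added *Fosb* (-1.01). Over the 40 neighbouring pairs in the order of group levels, 33 differed at an adjusted p below 0.05 (edgeR). The 7 that did not were WT and Combo for *Fos* and *Junb*, anti-IL-17A and Combo for *Fosl1* and *Jun*, GLP-1R agonist and WT for *Fosl1*, Vehicle and WT for *Jund*, and GLP-1R agonist and Combo for *Atf3*. Neighbouring pairs were not counted over all genes, of which 52.5% to 76.6% passed the same test in any one BM comparison.

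In ATMs the members were abundant and their changes were mostly below the fold limit. In Vehicle vs WT, *Fosl1* and *Jund* rose (2 of 10, where 35.4% of all genes were called). The GLP-1R agonist group had higher *Fosb* and lower *Dusp1* than Vehicle (2 of 10, background 31.8%). With anti-IL-17A, *Fosl1* and *Egr1* fell (2 of 10, background 35.5%). In Combo, *Fosl1*, *Egr1* and *Atf3* fell (3 of 10, background 26.4%), and all 10 members had lower means than in Vehicle with an adjusted p below 0.05 (edgeR, background 48.7%). These 4 comparisons share the Vehicle libraries, in which the summed neutrophil markers were highest and the summed macrophage markers lowest. Over all 17059 genes the median log2 fold change was -0.21 in Vehicle vs WT, 0.19 with the GLP-1R agonist, 0.17 with anti-IL-17A and 0 in Combo.

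**Figure D3:**
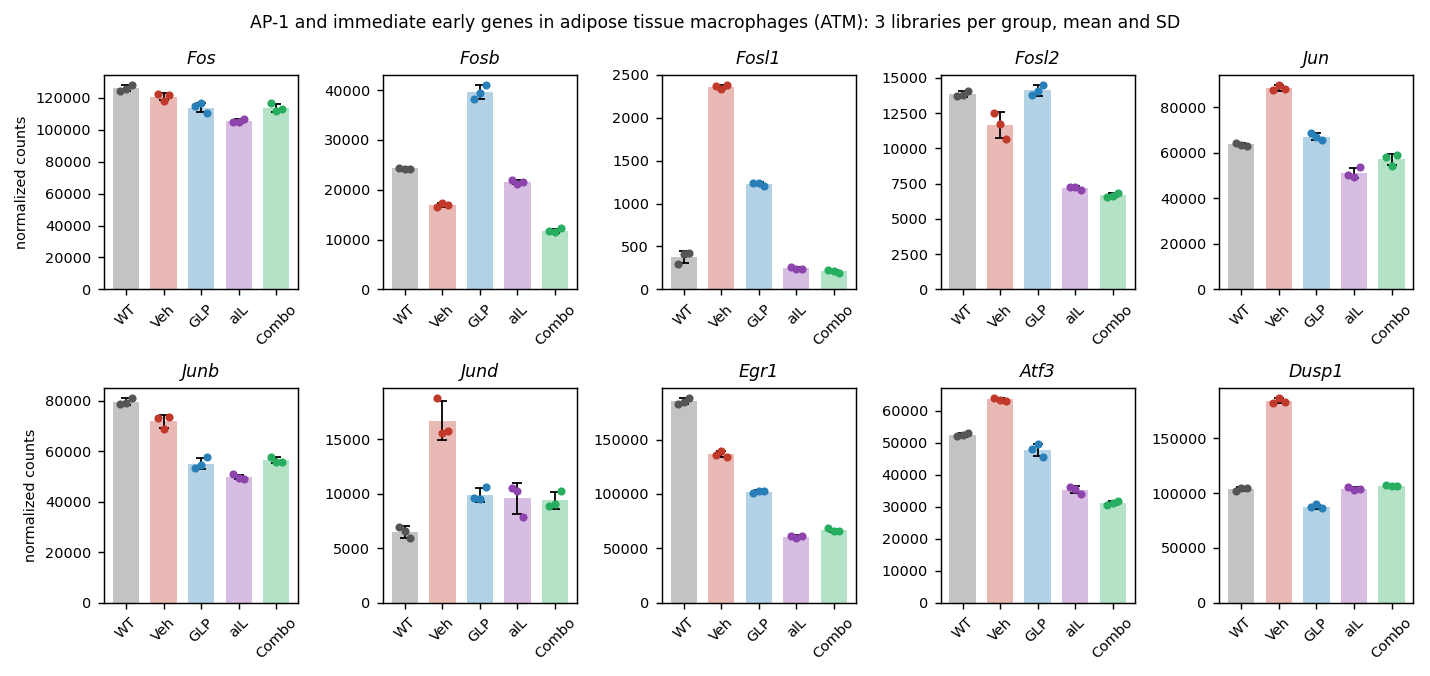
Normalized counts of the 10 members in ATMs, drawn as for BM, with 1 point per library and bars for the mean and SD of 3. *Jun*, *Jund*, *Atf3*, *Fosl1* and *Dusp1* were highest in Vehicle, *Fosb* and *Fosl2* with the GLP-1R agonist, and *Fos*, *Junb* and *Egr1* in WT.

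*Fos* itself was nearly level in ATMs, from 105560 ± 1079 with anti-IL-17A to 126074 ± 2002 in WT (SD, n = 3). The log2 fold change of Vehicle vs WT was -0.06 (95% interval -0.12 to -0.01, edgeR adjusted p = 0.0513), and Combo and the GLP-1R agonist overlapped. *Fosb* had normalized counts of 24467, 24266 and 24169 in WT, 16562, 17324 and 16874 in Vehicle, 38308, 39396 and 41080 with the GLP-1R agonist, 21894, 21238 and 21601 with anti-IL-17A and 11663, 11512 and 12249.8 in Combo. The groups were separate, with the GLP-1R agonist highest and Combo lowest. *Fosb* was 2.34-fold higher with the GLP-1R agonist than in Vehicle (log2 fold change 1.23, SE 0.035, adjusted p = 8.76e-14), while anti-IL-17A gave 0.35 and Combo -0.52.

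*Fosl1* gave the largest called differences among the members in ATMs. Its normalized counts were 295, 410.3 and 419 in WT, 2368, 2332 and 2378 in Vehicle, 1240.3, 1244 and 1210.4 with the GLP-1R agonist, 262, 239 and 236 with anti-IL-17A and 223, 213 and 194 in Combo. Vehicle stood far above WT, anti-IL-17A and Combo, with the GLP-1R agonist between. *Fosl1* was 6.29-fold higher in Vehicle than in WT (log2 fold change 2.65, SE 0.14, adjusted p = 1.55e-10), and fell 9.59-fold with anti-IL-17A (log2 fold change -3.26, SE 0.14, adjusted p = 1.59e-11) and 11.2-fold in Combo (log2 fold change -3.49, SE 0.15, adjusted p = 1.00e-11). With the GLP-1R agonist the difference was -0.94, just inside the fold limit. *Fosl1* is one of 2 members, with *Dusp1*, that the study itself picked for display in ATMs from these libraries, so its direction is not independent evidence. *Fosl2* formed 2 levels, 13860.5 ± 217 in WT, 11634 ± 919 in Vehicle and 14115 ± 374 with the GLP-1R agonist against 7181 ± 139.7 with anti-IL-17A and 6687 ± 136 in Combo. The difference in Combo vs Vehicle was -0.80, below the fold limit.

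*Jun* and *Junb* stayed within the fold limit in the 4 comparisons. *Jun* was highest in Vehicle, at 88522 ± 1297 against 63776 ± 641 in WT (0.47) and 51124 ± 2264 with anti-IL-17A (-0.79). *Junb* was highest in WT, at 79594 ± 1276, and lowest with anti-IL-17A, at 49774 ± 875. *Jund* had normalized counts of 6958, 6570.4 and 5891 in WT, 18758, 15568 and 15705 in Vehicle, 9573, 9462 and 10604 with the GLP-1R agonist, 10543, 10252 and 7896 with anti-IL-17A and 8868, 9009 and 10278 in Combo. Vehicle libraries were above and WT libraries below the treated groups, which overlapped with each other. *Jund* was 2.58-fold higher in Vehicle than in WT (log2 fold change 1.37, SE 0.11, adjusted p = 2.51e-08).

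*Egr1* was abundant in ATMs. Its normalized counts were 182654, 184385 and 188093 in WT, 135926, 139153 and 133754 in Vehicle, 101057, 103051 and 102416 with the GLP-1R agonist, 61395, 59309.9 and 61482 with anti-IL-17A and 68370.5, 65737 and 65799 in Combo. The 5 groups did not overlap, with WT highest and anti-IL-17A lowest, the reverse of the place anti-IL-17A held in BM. *Egr1* fell 2.24-fold with anti-IL-17A (log2 fold change -1.17, SE 0.025, adjusted p = 1.78e-15) and 2.05-fold in Combo (log2 fold change -1.03, SE 0.025, adjusted p = 1.20e-14). The differences of Vehicle vs WT (-0.44) and of the GLP-1R agonist vs Vehicle (-0.42) were below the fold limit.

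*Atf3* had normalized counts of 51991, 52393 and 53149 in WT, 63960.3, 63466 and 63185 in Vehicle, 47994, 49482 and 45631 with the GLP-1R agonist, 36187, 35563 and 34048 with anti-IL-17A and 30511, 31033 and 31745 in Combo in ATMs. It was highest in Vehicle and lowest in Combo, with no overlap between groups. *Atf3* fell 2.04-fold in Combo (log2 fold change -1.03, SE 0.033, adjusted p = 3.77e-13). *Dusp1* had normalized counts of 101807, 104788 and 105036 in WT, 182769, 186893 and 183362 in Vehicle, 87105, 89703 and 86120.4 with the GLP-1R agonist, 105635, 103262 and 103516 with anti-IL-17A and 107466, 106267 and 106986 in Combo. Vehicle stood above the other groups, WT, anti-IL-17A and Combo were close, and the GLP-1R agonist was lowest. *Dusp1* fell 2.10-fold with the GLP-1R agonist (log2 fold change -1.07, SE 0.022, adjusted p = 1.78e-15), while its differences with anti-IL-17A (-0.82), in Combo (-0.79) and in Vehicle vs WT (0.83) were within the fold limit.

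Against WT, Combo ATMs had lower *Fosb* (-1.04), *Fosl2* (-1.05) and *Egr1* (log2 fold change -1.47, SE 0.025, adjusted p = 4.70e-16), 3 of 10 with a background of 21.6%. Against the GLP-1R agonist alone, Combo had lower *Fosb* (log2 fold change -1.75, SE 0.036, adjusted p = 7.30e-15), *Fosl1* (-2.55) and *Fosl2* (-1.08), 3 of 10 with a background of 18.7%. Between Combo and anti-IL-17A alone 0 of 10 were called by edgeR and 0 by DESeq2, with a background of 14.2%. Without the fold limit 6 of the 10 members had an adjusted p below 0.05 (edgeR), against 28.6% of all genes. The widest of these 10 differences was *Fosb*, at -0.87 (95% interval -0.94 to -0.79). Of 40 neighbouring pairs in the order of levels 29 differed (edgeR adjusted p below 0.05) and 11 did not, among them WT and Vehicle for *Fos*, anti-IL-17A and Combo for *Fosl1*, *Fosl2*, *Jund* and *Dusp1*, and anti-IL-17A and WT for *Dusp1*. Such pairs were not counted over all genes, of which 28.6% to 58.1% passed the same test in any one ATM comparison.

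The single agents also differed from each other. In BM the GLP-1R agonist group was lower than the anti-IL-17A group in 6 of 10 members, where 5.83% of all genes were called and 3.41% were called lower. *Egr1* was -2.05 (log2 fold change, edgeR adjusted p = 7.21e-37) and *Fos* -1.66 (edgeR adjusted p = 4.96e-37). *Fosb* (-1.71), *Atf3* (-1.40), *Jun* (-1.32) and *Fosl1* (-2.65) were also lower. The same libraries set against WT gave 4 of 10 with the GLP-1R agonist (*Fos* -1.04, *Fosb* -1.11, *Egr1* -1.22, *Atf3* -1.80), with a background of 14.7%, and 1 of 10 with anti-IL-17A (*Fosl1* 2.81), with a background of 6.32%. That value of *Fosl1*, a gene with few counts in BM, was 2.16 without BM WT replicate 1 and 3.81 without BM WT replicate 2. In ATMs the agents differed in 1 of 10 (*Fosl1* 2.32, higher with the GLP-1R agonist), with a background of 8.1%. Against WT the counts in ATMs were 1 of 10 with the GLP-1R agonist (*Fosl1* 1.71), with a background of 15.1%, and 1 of 10 with anti-IL-17A (*Egr1* -1.61), with a background of 18.7%. These comparisons were added after the values had been seen, and they share their libraries with those above.

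**Figure D4:**
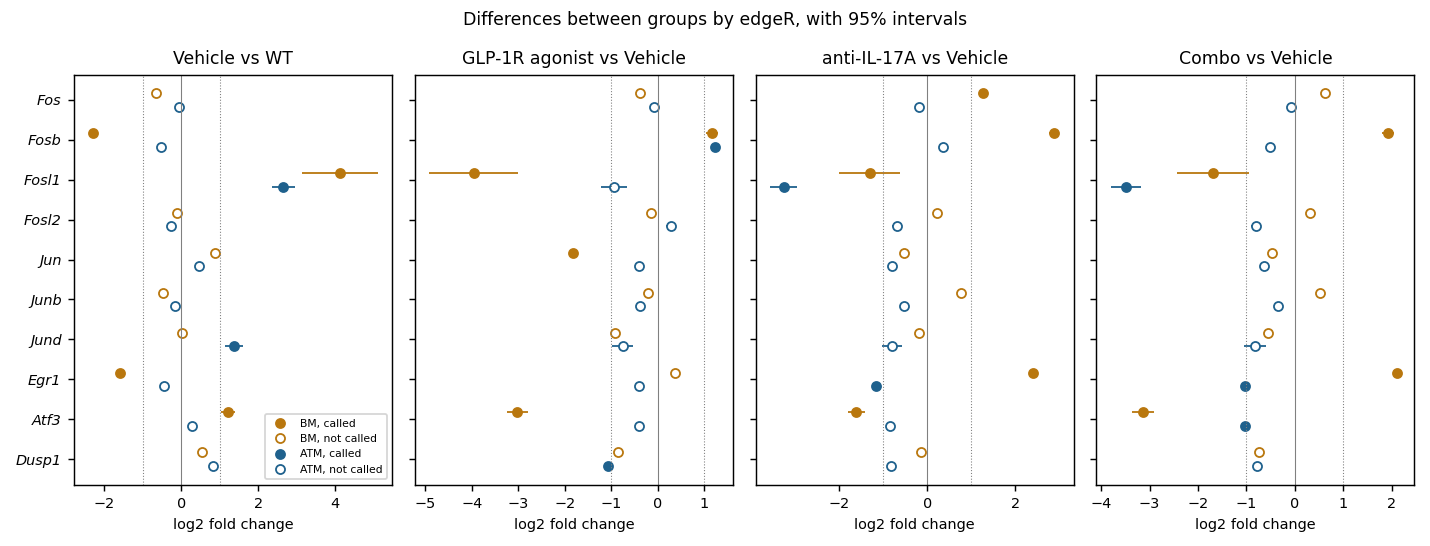
Log2 fold changes with 95% intervals of the 10 members in 4 comparisons, BM in orange and ATMs in blue, filled where called (edgeR adjusted p below 0.05 and absolute log2 fold change above 1, dotted lines). Anti-IL-17A and Combo moved *Fosb* and *Egr1* far to the right in BM, and *Egr1* to the left in ATMs.

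Whether the same comparison differed between the tissues was tested directly, as ATM effect minus BM effect in one fit of the 30 libraries (edgeR, adjusted p below 0.05, no fold limit). In Vehicle vs WT 9 of 10 members passed, where 56% of 13076 genes did, and all 9 had the same sign in both tissues: *Fosb* was -2.28 in BM and -0.52 in ATMs, and *Egr1* -1.59 and -0.44. With anti-IL-17A 10 of 10 passed (background 56.4%), and *Fos*, *Fosl2*, *Junb* and *Egr1* had opposite signs. *Egr1* was the most discordant, at 2.41 in BM and -1.17 in ATMs (difference -3.61, SE 0.04, adjusted p = 7.97e-30). *Fos* was 1.28 and -0.19 (difference -1.50, SE 0.036, adjusted p = 1.58e-22). In Combo 8 of 10 passed (background 55.1%), with opposite signs for *Fos*, *Fosb*, *Fosl2*, *Junb* and *Egr1*, and *Egr1* again differed most (difference -3.09, SE 0.04, adjusted p = 4.00e-28). With the GLP-1R agonist 8 of 10 passed (background 53.4%), with opposite signs for *Fosl2* and *Egr1*, while *Fosb* was nearly the same, 1.17 in BM and 1.23 in ATMs (difference 0.05, SE 0.064, adjusted p = 0.51). *Fosl1*, *Jun*, *Jund*, *Atf3* and *Dusp1* kept one sign in both tissues in all 4 comparisons, with higher values in Vehicle than in WT and in each treated group, though not every one of these differences passed a test.

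**Figure D5:**
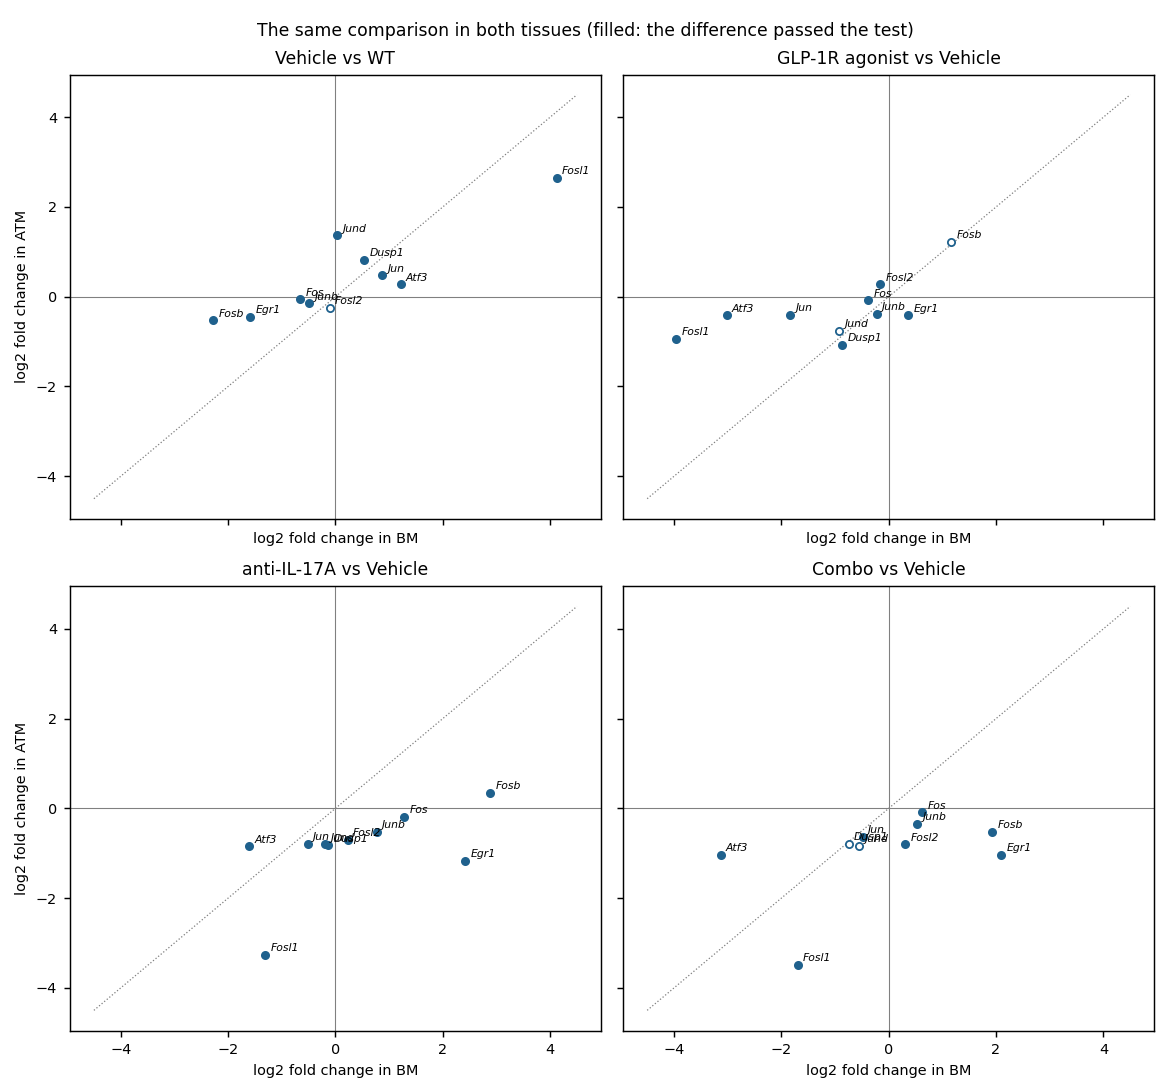
Log2 fold change in BM (x axis) against that in ATMs (y axis) for each member in 4 comparisons, filled where the difference between tissues passed the test, with a dotted line of equality. With anti-IL-17A and in Combo, *Egr1* lies at the lower right, positive in BM and negative in ATMs, and *Fosl1* lies below 0 on both axes.

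Other genes of the pathway were read from lists, and each count is to be set against the share of all genes called. In Vehicle vs WT this was 9.44% higher and 10% lower in BM and 12.5% higher and 22.9% lower in ATMs, and in Combo vs Vehicle 6.58% higher and 11.1% lower in BM and 14.1% higher and 12.2% lower in ATMs. With the GLP-1R agonist it was 7.6% higher and 9.08% lower in BM and 20.8% higher and 10.9% lower in ATMs, and with anti-IL-17A 7.65% higher and 8.46% lower and 22.4% higher and 13.1% lower. Of other AP-1 and leucine zipper factors, Vehicle vs WT called 4 higher and 0 lower of 13 in BM (median log2 fold change 0.50, against -0.02 over all genes) and 6 higher and 1 lower of 13 in ATMs (median 0.85, against -0.21). *Batf2*, an interferon-induced member, rose by 3.81 and 4.33. *Maff*, a small Maf factor, rose by 2.51 in BM, and in ATMs the stress factor *Ddit3* rose by 2.33 and *Maf*, a factor of resident macrophages, fell (-2.02). Combo vs Vehicle called 0 higher and 6 lower of 13 in BM (median -0.55) and 2 higher and 7 lower of 13 in ATMs (median -1.26). *Batf2* fell in both (-4.74 and -4.15), *Maff* in BM (-3.41) and *Ddit3* in ATMs (-1.93), where *Maf* (2.32) rose.

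Of 22 other immediate early genes, 6 rose and 4 fell in BM of Vehicle vs WT (median 0.07, background 19.5%). Those with the largest changes were *Cyr61* (4.26), a matricellular growth factor, and *Nfkbia* (2.07), the NF-kB inhibitor, upward, and the myeloid factor *Klf4* (-2.85) and *Egr3* (-1.76) downward. Combo vs Vehicle called 2 higher and 4 lower of 22 in BM (background 17.7%): *Klf4* (2.72) and *Egr2* (1.61) rose, and *Cyr61* (-4.59) and the nuclear receptor gene *Nr4a3* (-3.10) were among those that fell. In ATMs the list gave 9 higher and 1 lower of 22 in Vehicle vs WT (median 0.55, background 35.4%), with *Nfkbia* (2.19) and *Srf* (2.06), which encodes serum response factor, up and *Nr4a2* (-1.62) down. In ATMs 0 higher and 11 lower of 22 were called in Combo vs Vehicle (median -1.05, against 0 over all genes, background 26.4%), led by *Cyr61* (-2.18) and *Csrnp1* (-2.16). With anti-IL-17A in ATMs the list gave 1 higher and 14 lower of 22 (median -1.22, background 35.5%), and the GLP-1R agonist gave 2 higher and 8 lower of 22 (median -0.91, background 31.8%). In BM these treatments gave 5 higher and 4 lower of 22 and 1 higher and 8 lower of 22.

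Genes with well known AP-1 sites were called 6 higher and 0 lower of 12 in BM (median 0.96) and 9 higher and 2 lower of 13 in ATMs (median 1.28) in Vehicle vs WT, against backgrounds of 19.5% and 35.4%. The chemokine gene *Ccl2* (5.74) and the protease inhibitor gene *Timp1* (5.17) rose most in BM, and *Timp1* (5.57) and the collagenase gene *Mmp13* (4.33) in ATMs, where *Plau* (-1.53) and *Itgax* (-1.53) fell. In Combo vs Vehicle 2 higher and 6 lower of 12 were called in BM (median -0.75) and 2 higher and 7 lower of 13 in ATMs (median -1.12), against 17.7% and 26.4%. *Ccl2* (-5.83 in BM, -4.33 in ATMs) and the cytokine gene *Il6* (-3.99 and -4.04) fell in both. The neutrophil protease gene *Mmp9* (1.46) and *Plau* (1.21) rose in BM, and the integrin gene *Itgax* (2.60) and *Plau* (1.10) in ATMs. For the single agents against Vehicle the list gave 0 higher and 3 lower of 12 in BM and 4 higher and 5 lower of 13 in ATMs with the GLP-1R agonist, and 1 higher and 4 lower of 12 and 3 higher and 6 lower of 13 with anti-IL-17A.

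Upstream, MAP kinases and serum response factor partners moved little: 1 of 12 was called in Vehicle vs WT and 1 of 12 in Combo vs Vehicle in each tissue, against 19.5% and 17.7% of all genes in BM and 35.4% and 26.4% in ATMs. These were *Elk4* in BM (1.00 and -1.17) and *Map2k1*, which encodes MEK1, in ATMs (1.22 and -1.11). Among 8 other dual-specificity phosphatases *Dusp16*, which acts on JNK and p38, rose in Vehicle vs WT (2.20 in BM and 1.69 in ATMs) and fell in Combo (-2.48 and -1.65). In all, Vehicle vs WT called 1 higher and 0 lower of 8 in BM and 3 higher and 0 lower of 8 in ATMs, including *Dusp7* (1.65), and Combo vs Vehicle called 0 higher and 5 lower of 8 in BM, including *Dusp4* (-2.36), and 0 higher and 1 lower of 8 in ATMs. Heat shock genes, which tissue handling also induces, were called 5 higher and 0 lower of 12 in ATMs in Vehicle vs WT (background 35.4%), with *Hspa1a* (2.47) and *Hspa1b* (2.41) highest, and 0 higher and 6 lower of 12 in Combo (background 26.4%), led by *Hspb1* (-2.44) and *Hspa1a* (-2.14). In BM the same list gave 0 higher and 1 lower of 11 in Vehicle vs WT, *Hsph1* (-1.59), and 0 higher and 0 lower of 11 in Combo vs Vehicle, with 9 at an adjusted p below 0.05 (edgeR) without the fold limit, and a median log2 fold change of -0.23 there and -0.27 in Combo vs Vehicle. Without the fold limit 76.6% of all genes in BM passed in Vehicle vs WT and 73.8% in Combo vs Vehicle. The part of heat shock and handling in the members' values was not tested.

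Over the 15 BM libraries the genes whose log2 CPM followed *Fos* most closely, of 10576 with a mean of at least 100 counts, were *Psap* (Pearson r 0.989), *Junb* (0.984), *Hexim1* (0.983), *Apba1* (0.950) and *Trib1* (0.941). In ATMs, of 12612 genes, they were *Ptges* (0.964), *Krt19* (0.958), *Rrad* (0.948), *Clic6* (0.946) and *Topors* (0.938). *Krt19* is among the mesothelial markers, whose sum in ATMs was highest in WT, and the part of other cells in these coefficients was not tested. The 15 points fall into 5 groups of 3, so these coefficients describe mainly the order of the group means. Among the members in ATMs, *Fos* had a coefficient of 0.933 with *Junb*, 0.906 with *Egr1* and 0.0044 with *Fosb*.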

How the data were processed

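RNA was sequenced from whole BM cells and from F4/80+ cells sorted from visceral fat (ATMs), with 15 libraries per tissue and 3 in each of 5 groups taken from the sample labels. STAR 2.7.2a (mm10) and featureCounts 2.0.1 (GENCODE, unstranded, a read that overlaps several genes counting once for every gene) were the authors' aligner and counter. They deposited raw counts, from which genes with few counts had been left out (smallest total 55 in BM and 54 in ATMs). That filter is not given in the sources used here.

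Each tissue was fitted once with edgeR 4.0.16 under R 4.3.3, by robust quasi-likelihood after TMM scaling. The low-count filter of edgeR (filterByExpr) took out 0 genes. Tests were 2-sided, with Benjamini-Hochberg adjustment over all genes, and genes were called where the adjusted p was below 0.05 and the log2 fold change beyond 1 in either direction. Standard errors came from the F statistic. The tissue difference was the interaction term of a joint model of all 30 libraries. The p-values measure the spread between libraries, which the labels call biological replicates, and counts limit the precision for *Fosl1* in BM. Alternatives were DESeq2 1.42.0 and its size factors, no fold limit, the low-count filter left off or replaced by a minimum of 10 counts per library, only the 6 libraries compared, the replicate number as a block and each library left out in turn.

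Comparisons of a single agent with WT or with the other agent were added after the values had been seen. The members, the wider gene lists and the markers were chosen with earlier results of these data known. Named from the wider lists were the 2 genes called with the largest rise and the 2 with the largest fall, per list, in Vehicle vs WT and in Combo vs Vehicle, and the 5 genes most like *Fos*. A gene that this rule names is not reported here. Promoters came from RefSeq (GRCm38.p6), and positions and exon lengths from GENCODE on GRCm38, in a release next to the authors'. Replicate numbers were not taken as pairs: same-numbered libraries of different groups had correlated deviations of -0.08 to 0.19 in BM and -0.05 to 0.03 in ATMs.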

Additional observations from a re-analysis of the deposited data

Results flagged for a closer look

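The difference between tissues in a group effect (ATM log2 fold change minus BM log2 fold change) passed its own test (edgeR interaction, adjusted p below 0.05) for the following members. In Vehicle vs WT the differences were *Fos* 0.60, *Fosb* 1.76, *Fosl1* -1.46, *Jun* -0.40, *Junb* 0.34, *Jund* 1.34, *Egr1* 1.15, *Atf3* -0.94, *Dusp1* 0.29. In the GLP-1R agonist vs Vehicle they were *Fos* 0.29, *Fosl1* 3.02, *Fosl2* 0.43, *Jun* 1.43, *Junb* -0.16, *Egr1* -0.79, *Atf3* 2.60, *Dusp1* -0.21. In anti-IL-17A vs Vehicle they were *Fos* -1.50, *Fosb* -2.56, *Fosl1* -1.98, *Fosl2* -0.95, *Jun* -0.30, *Junb* -1.32, *Jund* -0.64, *Egr1* -3.61, *Atf3* 0.74, *Dusp1* -0.71. In Combo vs Vehicle they were *Fos* -0.67, *Fosb* -2.40, *Fosl1* -1.75, *Fosl2* -1.07, *Jun* -0.11, *Junb* -0.83, *Egr1* -3.09, *Atf3* 2.14. Most genes passed the same test (53.4% to 56.4% of 13076), so the number of members that passed is read against that share. The differences in *Fosl1* rest on low BM counts, and in Vehicle vs WT the test was no longer passed without BM WT replicate 1 (-0.81, adjusted p = 0.139) or without BM Vehicle replicate 2 (-1.32, adjusted p = 0.0518), and the value was -2.44 without BM WT replicate 2. In the GLP-1R agonist comparison it was 3.93 without BM GLP-1R agonist replicate 2. For *Jun* in Combo the test was not passed without BM Vehicle replicate 1 or 2, BM Combo replicate 1 or 2 or ATM Combo replicate 2 (values of -0.11 to -0.07). ATM libraries also differed between groups in neutrophil, stromal, mesothelial, erythroid, epididymal and pancreatic transcripts, whose part in these differences was not tested.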

How the results depend on the processing

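The numbers of members called kept within 1.5 times of the reported ones under DESeq2, its size factors, no low-count filter, the 6 libraries alone and the replicate block, for all 20 comparisons. Without a fold limit they were, in BM, 9 (Vehicle vs WT), 10, 10 and 10 (GLP-1R agonist, anti-IL-17A and Combo vs Vehicle), 8 (Combo vs WT), 9 (vs GLP-1R agonist) and 8 (vs anti-IL-17A), and in ATMs, in this order, 9, 10, 10, 10, 9, 7 and 6. For GLP-1R agonist vs WT, anti-IL-17A vs WT and GLP-1R agonist vs anti-IL-17A they were 9, 10 and 10 in BM and 8, 9 and 9 in ATMs. The shares of all genes that passed were, in the first order, 76.6%, 72.8%, 73%, 73.8%, 73.3%, 71.4% and 52.5% in BM. In ATMs these shares were 56.9%, 53.8%, 58.1%, 48.7%, 41.1%, 39.8% and 28.6%. For the comparisons named last they were 74.7%, 66.3% and 62.7% in BM and 35.5%, 38.3% and 29.8% in ATMs. With at least 10 counts in every library, *Fosl1* left the BM table, and Combo vs WT gave 1, Combo vs the GLP-1R agonist 2 and anti-IL-17A vs WT 0. Leaving out 1 library each gave 1 to 2 for Combo vs anti-IL-17A in BM. With the replicate block, Vehicle vs WT called 4 members in BM and 2 in ATMs, as without it, and each BM library matched its own number best in 6 of 15 cases (ATMs, 3 of 15). *Fos* in BM Combo vs the GLP-1R agonist fell under the fold limit with DESeq2 size factors (0.996), DESeq2 (0.996), at least 10 counts (0.97) and the 6 libraries alone (0.99), and *Fosb* in ATM Combo vs WT with the 6 libraries alone (-0.998). Some values near 0 changed sign. With the 6 libraries alone these were *Jun* in BM Combo vs anti-IL-17A (-0.0074), and in ATMs *Fos* in Combo vs GLP-1R agonist (0.039), *Fosl2* in GLP-1R agonist vs WT (-0.019) and *Dusp1* in anti-IL-17A vs WT (-0.010). With DESeq2 size factors they were, in ATMs, the same *Fos* (0.029) and *Fosl2* (-0.0072) and *Jund* in GLP-1R agonist vs anti-IL-17A (-0.0059), with DESeq2 these 3 again (0.029, -0.0072 and -0.0060), and with at least 10 counts that *Fos* (0.024). Leaving out 1 library gave, in BM, -0.0056 to 0.042 for that *Jun*, -0.19 to 0.013 for *Atf3* in Combo vs GLP-1R agonist and -0.75 to 1.16 for *Fosl1* in GLP-1R agonist vs WT. In ATMs it gave -0.025 to 0.012 for that *Fos*, -0.15 to 0.048 for *Jund* in Combo vs anti-IL-17A, -0.012 to 0.014 for that *Dusp1* and -0.074 to 0.12 for *Jund* in GLP-1R agonist vs anti-IL-17A. As ATM minus BM, *Fosb* with the GLP-1R agonist was -0.033 with DESeq2 size factors, and *Dusp1* in Combo was -0.038 with separate fits, -0.11 with DESeq2 size factors and -0.040 to 0.011 with 1 library left out. The difference of *Dusp1* passed the test with DESeq2 size factors (edgeR adjusted p = 0.00544), as did *Jund* in Combo (-0.35) and, with separate fits, *Fosl2* in Vehicle vs WT (-0.14) and *Jund* in Combo (-0.28). The cause of these changes was not tested. Depth limits *Fosl1* in BM only, at 0 to 114 counts.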
